A study of Mus musculus with 4 samples.

Results

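RNA of 10 genes of the Notch pathway was measured in embryonic mouse larynx with and without *Shh*. They were the receptors *Notch1*, *Notch2* and *Notch3*, the ligands *Dll1*, *Dll3*, *Jag1* and *Jag2*, and the target genes *Hes1*, *Hes5* and *Hey1*. All 10 were found by gene symbol among the 46983 genes listed for each library, and 9 were among the 16972 genes whose mean level over the libraries reached 1 TPM, a level scaled by transcript length and library total, and which were therefore tested. The exception was *Hes5*.

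Notch receptors are transmembrane proteins that are activated by Delta-like (DLL) and Jagged (JAG) ligands on neighboring cells. Ligand binding leads to cleavage by an ADAM protease and then by γ-secretase, which frees the intracellular domain to enter the nucleus and, with the DNA-binding protein RBPJ, switch on repressors of the HES and HEY families. In the embryo this pathway is best known for holding back neuronal differentiation, for arterial and mural cell development and for the segmentation of somites.

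The series compared 2 pools of *Shh-/-* larynx tissue, numbered 1 and 2, with 2 pools of WT larynx tissue, numbered 4 and 6, to find genes that depend on Hedgehog (HH) signaling. Each pool combined 3 larynxes of E10.5 embryos with 32 to 35 somites. The mutant carried the germline null allele Shhtm1amc, kept on the Swiss Webster background, which is not restricted to a tissue, and the WT embryos were Swiss Webster. The RNA integrity number was 9.0 in WT pool 6 and 7.7 to 8.0 in the others. The sample labels write the mutant as Shh+/-, while the design text and the study's methods give *Shh-/-*. Litters were not stated, so the p-values measure only the spread between these pools. The test used (limma) takes part of that spread from all tested genes rather than from the single gene.

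Depth, derived from coverage and FPKM, was 1370 and 3130 aligned megabases for *Shh-/-* and 2850 and 2970 for WT, so that *Shh-/-* pool 1 was the shallowest. *Shh* was listed at 10.4 and 10.8 TPM in *Shh-/-* tissue against 23.7 and 42.1 in WT (limma adjusted p = 0.0895). It was thus lower but not at 0 in the libraries labelled as mutant, and whether these reads cover the part of the gene that the allele alters was not tested. *Ptch1*, the HH receptor and a target of the pathway, fell from 57.8 and 55.1 TPM in WT to 12.9 and 13.8 (log2 change -2.0, limma adjusted p = 0.0319). The epithelial marker *Epcam* (86.4 to 123.4 TPM) and the mesenchymal marker *Col3a1* (309.2 to 359.2 TPM) were present in every library.

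None of the 9 tested Notch genes passed an adjusted p of 0.05 in limma, at which 0.725% of all tested genes were called. The study itself reported many more HH-dependent genes at a false discovery rate of 0.05, by a test that its methods do not name. At an unadjusted p of 0.05 4 of the 9 genes passed (*Notch1*, *Dll1*, *Jag2* and *Hey1*), all of them higher in *Shh-/-*, beside 17.5% of all tested genes in that direction, and 0 were lower, beside 7.22%. At a relaxed adjusted p of 0.10 *Notch1* alone passed, beside 5.06% of all tested genes. Both *Shh-/-* pools lay above both WT pools for 7 of the 9 genes, beside 38.0% of all tested genes, and below them for *Jag1* alone, beside 22.7%. The pools of *Hes1* overlapped, so that 8 of the 9 genes had no overlap in either direction, beside 60.7%. The median log2 change of the 9 genes was 0.45, with 8 positive and 1 negative, and that of all tested genes was 0.08, with 58.3% positive. Centring each library on its median took 0.13 off every log2 change and left a median of 0.32 with the same split of 8 and 1. A correction for GC content and transcript length left a median of 0.20, again with 8 and 1. *Shh-/-* pool 2 was the lowest library for 1 of the 10 genes (*Jag1*). WT pool 6, with the highest RNA integrity number, was the lowest for the other 9. This pool also had the lowest median log2(TPM + 1) over all tested genes, 4.04 against 4.10 to 4.24 in the others. The share of all tested genes that were lowest in it was not counted. The part of RNA quality in these values was not tested.

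**Figure D1:**
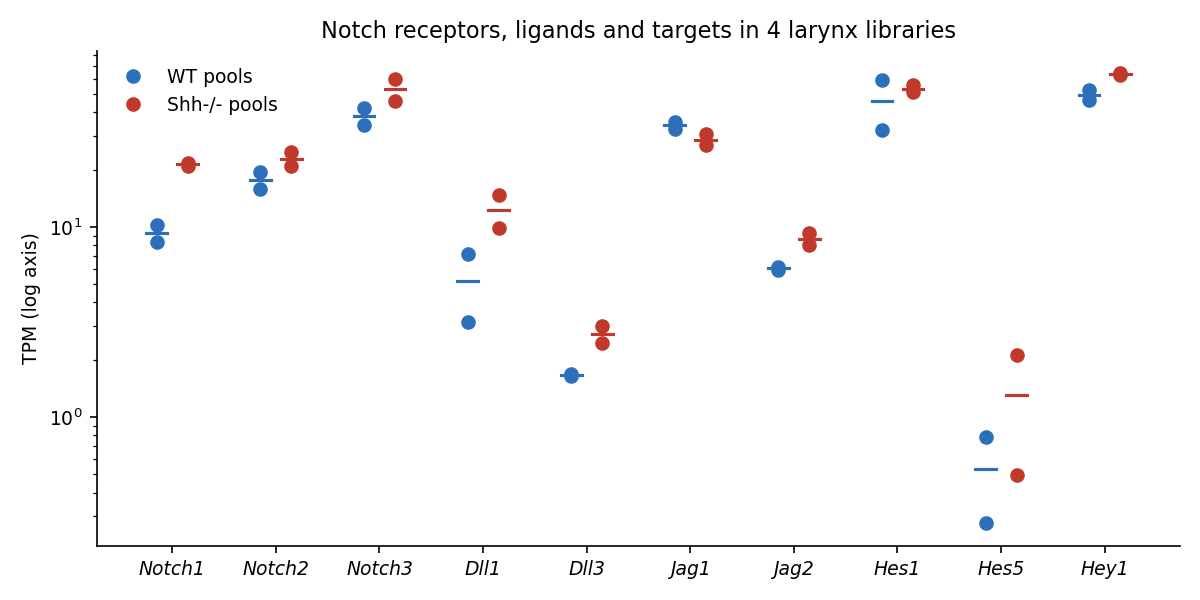
Level of each of the 10 Notch genes in TPM on a log axis, with a point for every pool (blue for WT, red for *Shh-/-*) and a short line at the mean of each genotype. The *Shh-/-* points of *Notch1* (21.7 and 20.9 TPM) stand clear of the WT points (10.2 and 8.32 TPM), while the points of *Hes1* and *Hes5* overlap.

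TPM of genes with several transcripts is a sum over transcripts, and for some genes it exceeded what the coverage of the gene gives after the same scaling. The deposited TPM was 1.75 to 2.22 times that value for *Notch1*, and 1.56 to 2.28 times for *Dll1*, and equal to it within rounding for *Notch3* and *Jag2*. The order of the genes by level therefore differs between the scales.

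By TPM, the most abundant of the 10 genes in WT tissue were *Hey1* (mean 49.4 TPM), *Hes1* (46 TPM), *Notch3* (38.1 TPM) and *Jag1* (34.1 TPM), and from each to the next in this order the pools overlapped. On the coverage scale *Notch3* (42.0 and 34.3) stood first in WT, ahead of *Hey1* (34.1 and 31.3), *Jag1* (32.2 and 30.1) and *Hes1* (35.3 and 15.7). *Notch2* followed at a mean of 17.7 TPM and *Notch1* at 9.24 TPM. *Jag2* (6.06 TPM) and *Dll1* (5.16 TPM) overlapped, and *Dll3* (1.66 TPM) and *Hes5* (0.531 TPM) were lowest. In *Shh-/-* tissue the order of the means differed in that *Dll1* (12.3 TPM) stood above *Jag2* (8.66 TPM), with no overlap between them. This order turned on the coverage scale, where *Dll1* was at 6.78 and 6.35 and *Jag2* at 9.25 and 8.07. By TPM *Notch1*, at 21.3 TPM, overlapped there with *Notch2*, at 22.9 TPM.

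*Notch1* (chromosome 2, 26457903 to 26516663, minus strand, mm10) encodes the receptor used by neural progenitors and endothelium, among other tissues. It measured 21.7 and 20.9 TPM in *Shh-/-* and 10.2 and 8.32 TPM in WT. Every *Shh-/-* pool was higher than every WT pool, and the pools of a genotype lay close together. The means were 21.3 ± 0.558 and 9.24 ± 1.3 TPM (SD, n = 2 each), a ratio of 2.3. Its log2 change came to 1.13 (standard error 0.16, 95% interval 0.72 to 1.53), and the limma adjusted p was 0.0622. *Notch1* was the Notch gene nearest to the threshold, and leaving out any pool kept its change between 1.0 and 1.26.

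The other receptors differed less. *Notch2* (chromosome 3, 98013527 to 98150361, plus strand) is broadly expressed in mesenchyme and epithelium, and measured 24.8 and 20.9 TPM in *Shh-/-* against 19.5 and 15.9 TPM in WT. The pools did not overlap, but the nearest pools of the genotypes lay closer together than the pools of either genotype (log2 change 0.36, 95% interval -0.08 to 0.79, limma adjusted p = 0.259). *Notch3* (chromosome 17, 32120820 to 32166880, minus strand), the receptor of smooth muscle and pericytes, measured 60.3 and 45.8 TPM in *Shh-/-* against 42.0 and 34.3 TPM in WT. *Shh-/-* pool 1 stood apart as the highest, and the 95% interval of the log2 change of 0.46 ran from -0.02 to 0.94 (limma adjusted p = 0.211). The change was 0.26 without *Shh-/-* pool 1 and 0.11 once GC content and length were corrected for, which took that of *Notch2* to 0.20.

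Because TPM is scaled by transcript length, the levels of the receptors can be added within a library, though the shares depend on the scale. *Notch1* to *Notch4* summed to 118.5 and 96.7 TPM in *Shh-/-* and 81.6 and 65.8 TPM in WT. *Notch1* made up 18.3 and 21.6% of this sum in *Shh-/-* and 12.5 and 12.6% in WT, and *Notch3*, the largest part, made up 47.3 to 52.2% over all pools. On the coverage scale the share of *Notch1* was 12.3 and 13.4% in *Shh-/-* and 7.89 and 6.7% in WT. The ratio of *Notch1* to *Notch2* by TPM was 0.872 and 0.996 in *Shh-/-* and 0.522 and 0.523 in WT, and on the coverage scale 0.513 and 0.528 against 0.319 and 0.243. The shares of *Notch1* and these ratios did not overlap between the genotypes, for which a two-sided exact permutation test of 2 pools against 2 gives p = 0.333, the smallest it can give.

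*Dll1* (chromosome 17, 15367354 to 15376872, minus strand), the Delta-like ligand of neuronal precursors and of presomitic mesoderm, had the largest ratio between the genotypes among the tested Notch genes. It measured 14.7 and 9.88 TPM in *Shh-/-* and 7.17 and 3.15 TPM in WT. The *Shh-/-* pools were both higher, and the WT pools differed from each other by 2.27-fold, nearly as much as the genotypes. The means were 12.3 ± 3.43 and 5.16 ± 2.84 TPM (SD, n = 2 each), a ratio of 2.38. The log2 change of 1.17 had a 95% interval of 0.18 to 2.16 and a limma adjusted p of 0.164. It depended on the WT pools, being 0.68 without WT pool 6 and 1.66 without WT pool 4.

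*Dll3* (chromosome 7, 28293553 to 28302238, minus strand) encodes a divergent ligand that acts inside the cell and does not activate Notch in neighboring cells. It was near the detection filter, at 3.02 and 2.45 TPM in *Shh-/-* and 1.69 and 1.64 TPM in WT. The pools did not overlap, with a log2 change of 0.48 (95% interval -0.05 to 1.02, limma adjusted p = 0.229), which the correction for GC content and length brought to 0.14.

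*Jag1* (chromosome 2, 137081456 to 137116644, minus strand), the main Jagged ligand of vessels and of many epithelia, was the most abundant of the 4 ligands in every pool and the only one of the 9 genes with a negative change. It measured 30.7 and 26.9 TPM in *Shh-/-* and 35.7 and 32.6 TPM in WT. Both *Shh-/-* pools were lower, though the nearest pools of the genotypes lay closer together than the pools of either genotype (log2 change -0.24, 95% interval -0.58 to 0.10, limma adjusted p = 0.312). *Jag2* (chromosome 12, 112908590 to 112929495, minus strand) measured 9.25 and 8.07 TPM in *Shh-/-* and 6.15 and 5.96 TPM in WT. The *Shh-/-* pools were higher, with a log2 change of 0.45 (95% interval 0.03 to 0.87, limma adjusted p = 0.186). The correction for GC content and length brought the change of *Jag2* to 0.04.

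The ligands that can activate a receptor on another cell (*Dll1*, *Dll4*, *Jag1* and *Jag2*) summed to 61.9 and 50.9 TPM in *Shh-/-* and 57.4 and 49.1 TPM in WT, and these sums overlapped. Their make-up did not overlap. *Dll1* took 23.8 and 19.4% of the sum in *Shh-/-* against 12.5 and 6.42% in WT, and *Jag1* took 49.5 and 52.9% against 62.2 and 66.3%. The ratio of *Dll1* to *Jag1* was 0.480 and 0.367 in *Shh-/-* and 0.201 and 0.0967 in WT (two-sided exact permutation p = 0.333, the smallest possible). On the coverage scale the share of *Dll1* was 13.5 and 14.2% against 6.33 and 3.53%, and its ratio to *Jag1* was 0.248 and 0.261 against 0.0974 and 0.0526.

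**Figure D2:**
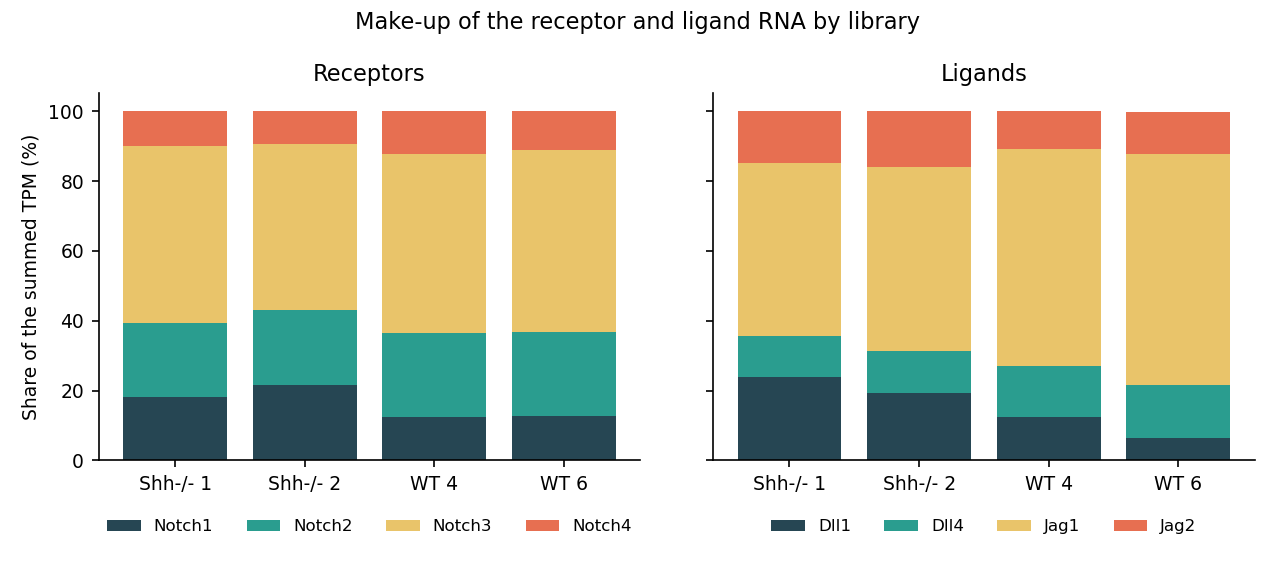
Share of the summed TPM in percent that each gene took in each library, for the receptors *Notch1* to *Notch4* (left) and the activating ligands *Dll1*, *Dll4*, *Jag1* and *Jag2* (right). *Notch1* takes 18.3 and 21.6% of the receptor RNA in the *Shh-/-* libraries and 12.5 and 12.6% in WT, and *Jag1* takes the largest share of the ligand RNA in every library.

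*Hes1* (chromosome 16, 30064384 to 30067796, plus strand), a repressor induced by Notch and by other signals, measured 51 and 55.9 TPM in *Shh-/-* and 59.6 and 32.3 TPM in WT. The *Shh-/-* pools lay between the WT pools, which differed from each other by 1.84-fold. The log2 change of 0.28 had a 95% interval of -0.49 to 1.04 (limma adjusted p = 0.579), and it was -0.16 without WT pool 6 and 0.71 without WT pool 4. *Hey1* (chromosome 3, 8663359 to 8667256, minus strand), a repressor of the vascular and mesenchymal Notch response, measured 62.8 and 64.3 TPM in *Shh-/-* and 52.3 and 46.5 TPM in WT. Both *Shh-/-* pools were higher and close to each other, with a log2 change of 0.36 (95% interval 0.07 to 0.65, limma adjusted p = 0.156).

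*Hes5* (chromosome 4, 154960923 to 154962371, plus strand), the repressor most tied to Notch in neural progenitors, was barely detected. It was listed at 2.11 and 0.492 TPM in *Shh-/-* and 0.785 and 0.276 TPM in WT. *Shh-/-* pool 1 was the highest, and the other *Shh-/-* pool lay between the WT pools. Without a filter on low values its log2 change was 0.51 (95% interval -0.66 to 1.68, limma adjusted p = 0.565), so no difference was detectable at this level.

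**Figure D3:**
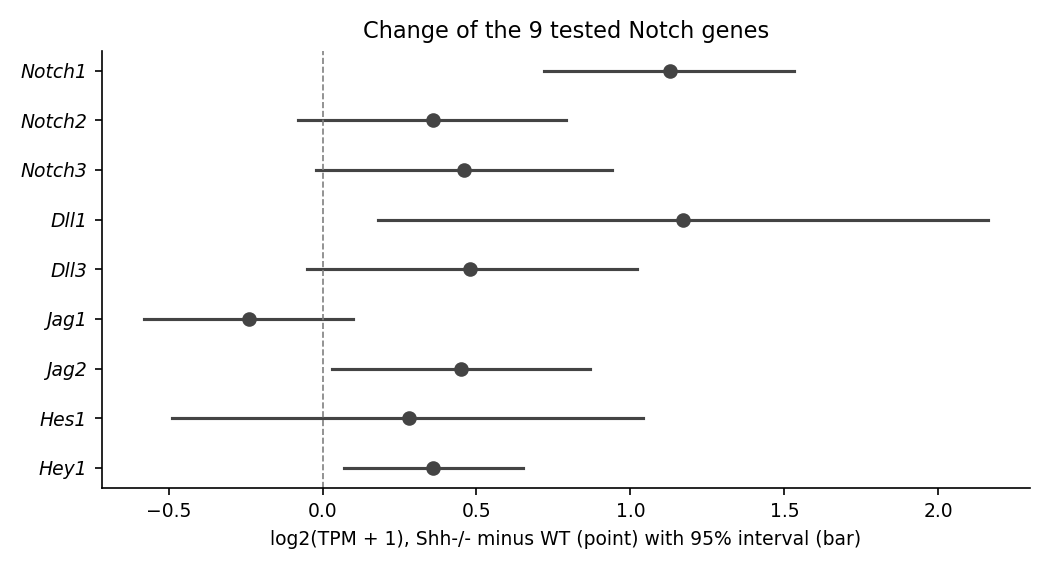
Difference in mean log2(TPM + 1) between *Shh-/-* and WT for each of the 9 tested Notch genes (point) with its 95% interval from limma (bar) and a dashed line at 0. The intervals of *Notch1*, *Dll1*, *Jag2* and *Hey1* lie above 0 before adjustment, and that of *Hes1* is broad, from -0.49 to 1.04.

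**Figure D4:**
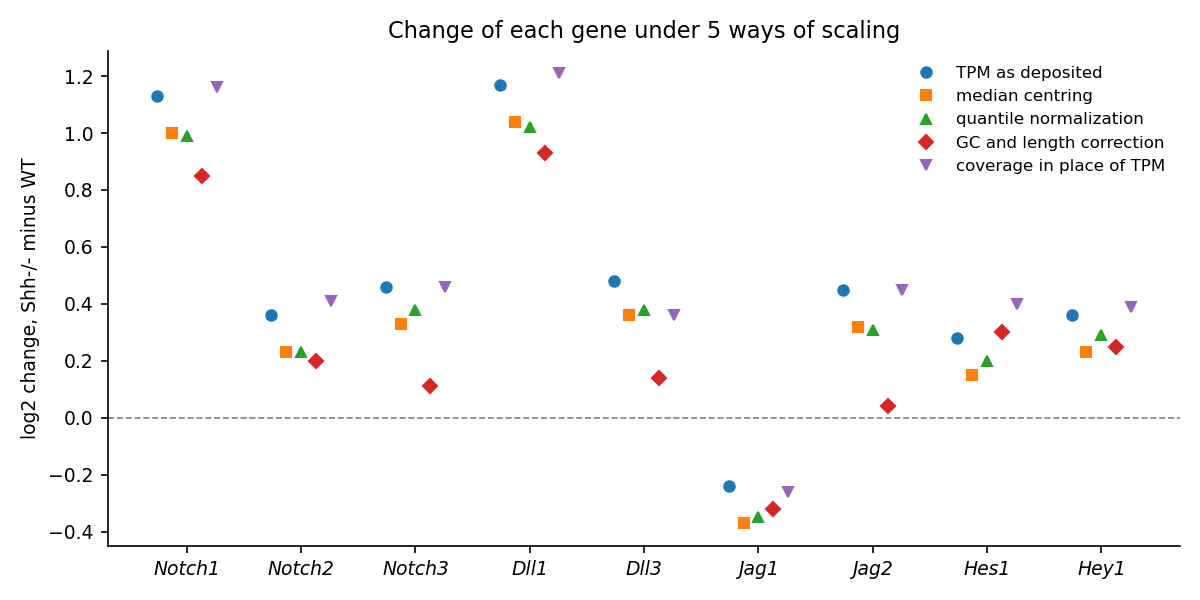
Log2 change (*Shh-/-* minus WT) of the 9 tested genes as deposited and under 4 other scalings, each with its own symbol. *Notch1* lies between 0.85 and 1.16, and *Jag1* is below 0 throughout. *Jag2*, *Notch3* and *Dll3* come down to 0.04, 0.11 and 0.14 after correction for GC content and length.

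On the coverage scale *Notch1* was 12.4 and 10.7 in *Shh-/-* and 5.62 and 3.75 in WT, and *Dll1* was 6.78 and 6.35 against 3.14 and 1.58. The log2 changes on that scale were 1.16 and 1.21, with limma adjusted p of 0.1 and 0.115. Genes that overlap the members on either strand were at most 1.70 TPM in any pool.

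The 3 tested genes whose levels followed *Notch1* most closely over the 4 libraries, by Euclidean distance of mean-centred log2(TPM + 1), were *Snap91* (0.0566), *S100a4* (0.0721) and *Fam43a* (0.0772), and 85 genes lay within a distance of 0.2. For *Dll1* they were *Axin2* (0.0820), a target of WNT signaling, followed by *Mir378b* (0.186) and *Gm10767* (0.204), and only 2 genes lay within 0.2. *Axin2* measured 29.1 and 18.5 TPM in *Shh-/-* and 14.3 and 7.04 TPM in WT. With 4 libraries, a small distance says only that the genes had the same order and similar spacing of pools.

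A wider list of 53 pathway genes, drawn up by role, held 48 tested genes. Their median log2 change was 0.31, with 35 positive and 13 negative, and both *Shh-/-* pools lay above both WT pools for 28 of them, beside 38.0% of all tested genes, and below for 8, beside 22.7%. Of the 48, 14 were higher and 2 lower at an unadjusted p of 0.05, beside 17.5 and 7.22% of all tested genes, and 1 passed the adjusted threshold, at which 0.560% of all tested genes were called higher. By role, the positive and negative changes numbered 5 and 1 among paralogs of the members, 4 and 1 among glycosyltransferases, 3 and 1 among the ubiquitin ligases that act on ligands, 6 and 4 among cleavage enzymes, 10 and 4 among nuclear factors and 7 and 2 among inhibitors and regulators. After median centring the split over the list was 34 and 14 with a median of 0.18.

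The gene that passed was *Mfng* (chromosome 15, 78755882 to 78773475), which encodes manic fringe, a glycosyltransferase that modifies Notch receptors and shifts their response between Delta-like and Jagged ligands. It measured 28.8 and 32.3 TPM in *Shh-/-* and 10.8 and 8.07 TPM in WT. *Mfng* rose by a log2 change of 1.61 (standard error 0.18, 95% interval 1.14 to 2.08, limma adjusted p = 0.0478). The call was at the margin, since the adjusted p ran from 0.0462 to 0.148 over the other settings and from 0.123 to 0.164 when any pool was left out, while the change stayed between 1.38 and 1.80. *Lfng*, which encodes lunatic fringe, measured 12.5 and 15.4 TPM against 5.37 and 4.85 TPM (log2 change 1.29, limma adjusted p = 0.0622). The fringes *Lfng*, *Mfng* and *Rfng* together summed to 60.4 and 63.5 TPM in *Shh-/-* and 30.6 and 24.8 TPM in WT, and *Mfng* made up 47.8 and 50.8% of that sum against 35.2 and 32.5% (39.8 and 41.5% against 28.4 and 25.4% on the coverage scale).

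Among the paralogs, the repressors *Hey2* and *Heyl* were higher in both *Shh-/-* pools. *Hey2* measured 16.5 and 16.5 TPM against 8.31 and 9.52 TPM (log2 change 0.82, limma adjusted p = 0.0849), and *Heyl* measured 14.7 and 15.3 TPM against 8.75 and 7.52 TPM (0.81, adjusted p = 0.0895). Together with *Hey1* they summed to 94.0 and 96.1 TPM in *Shh-/-* and 69.4 and 63.6 TPM in WT. *Hes6*, which opposes HES1 and favors neuronal differentiation, measured 85.3 and 65.9 TPM against 47.7 and 45.8 TPM (0.67, limma adjusted p = 0.11). With the correction for GC content and length the log2 changes were 0.41 for *Hes6*, 0.54 for *Heyl* and 0.9 for *Hey2*. *Hes7*, an oscillator of the segmentation clock, was at 0.378 TPM or less in every pool and was not tested.

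The endothelial receptor *Notch4* overlapped between the genotypes, at 11.7 and 9.17 TPM against 10.0 and 7.23 TPM. The endothelial ligand *Dll4* measured 7.30 and 5.99 TPM in *Shh-/-* and 8.38 and 7.42 TPM in WT (log2 change -0.22, limma adjusted p = 0.461). *Dlk1*, a secreted or membrane-bound relative of the ligands, was high and variable, at 125.0 and 152.7 TPM against 58.3 and 21.5 TPM (1.93, limma adjusted p = 0.116), and its WT pools differed more from each other than those of *Dll1*.

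Of the genes that act within the cell, the corepressor *Tle2* measured 17.9 and 14.9 TPM in *Shh-/-* and 3.96 and 5.83 TPM in WT (log2 change 1.57, limma adjusted p = 0.0633). The ubiquitin ligase gene *Dtx1* measured 4.67 and 5.19 TPM against 1.23 and 1.08 TPM (1.46, limma adjusted p = 0.0602), and only 0.41 on the coverage scale. *Psen2*, a catalytic subunit of γ-secretase, measured 16.4 and 10.4 TPM against 6.58 and 4.97 TPM (1.07, limma adjusted p = 0.122), and 0.53 on the coverage scale. In the other direction *Rbpj*, the DNA-binding partner of the Notch intracellular domain, measured 43.5 and 48.4 TPM against 57.8 and 61.1 TPM (-0.37, limma adjusted p = 0.154), a sign that turned to 0.07 on the coverage scale. *Itch*, a ubiquitin ligase that lowers Notch levels, measured 38.6 and 42.3 TPM against 55.1 and 66.6 TPM (-0.57, limma adjusted p = 0.118).

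**Figure D5:**
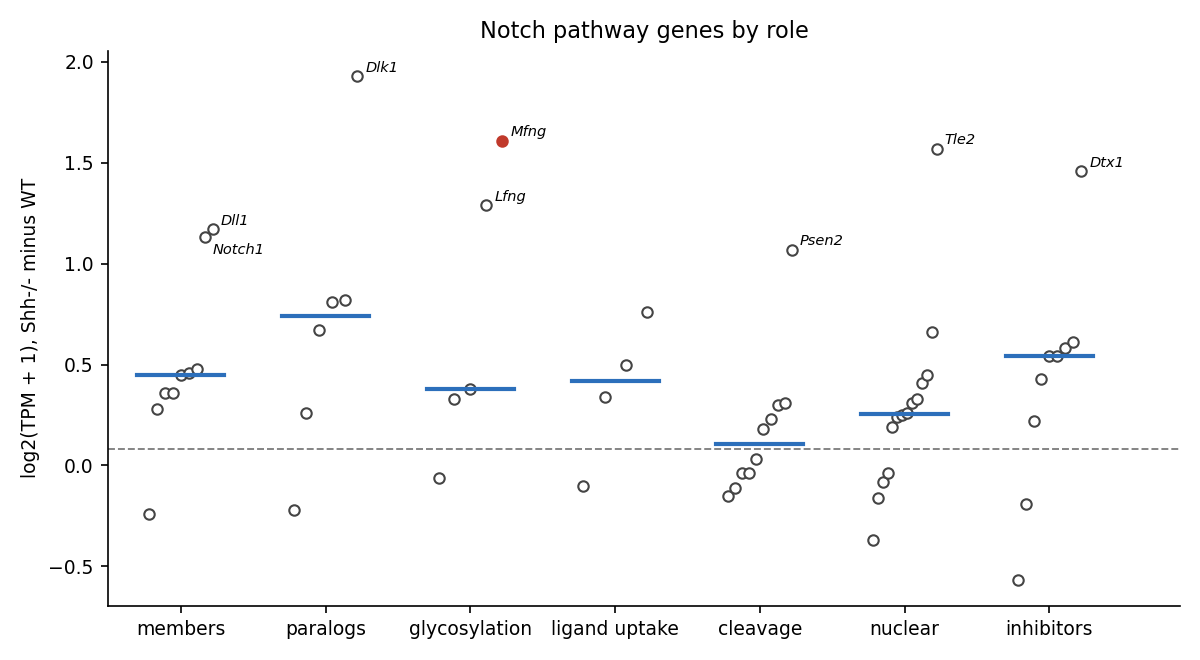
Log2 change (*Shh-/-* minus WT) of each tested gene of the Notch pathway by role, with a blue line at the median of each role and a dashed line at 0.08, the median of all tested genes. The filled red point is *Mfng*, the gene past the adjusted threshold, and genes with a change beyond 1 in either direction are named.

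RBPJ binds DNA at the core motif TGGGAA, and paired copies in opposite orientation occur in some Notch targets. The motif was looked for on both strands (TGGGAA or TTCCCA) in RefSeq promoter windows (GRCm38.p6) of 300 bases, from 250 before to 50 after each start. Of 32851 windows, 25.6% held at least 1 match and 3.79% held 2 or more. Windows were matched for 8 of the 10 genes, 9 windows in all, and 1 of them, that of *Hes5*, held a match. *Hes1* and *Hey1* had no window in the table and were not searched. Of 56 windows of 42 genes of the wider list, 13 held a match and 3 held 2 or more (*Lfng*, *Hey2* and *Rbpj*). The stretches that hold both matches are shown for *Hes5*, *Lfng* and *Hey2*, chosen after the matches were seen, with the matches in capitals and 10 bases on each side.
Hes5: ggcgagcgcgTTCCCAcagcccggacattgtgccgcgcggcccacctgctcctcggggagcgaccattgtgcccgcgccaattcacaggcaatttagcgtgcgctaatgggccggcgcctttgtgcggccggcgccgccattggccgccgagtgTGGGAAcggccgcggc
Lfng: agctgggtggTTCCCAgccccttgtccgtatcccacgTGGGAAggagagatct
Hey2: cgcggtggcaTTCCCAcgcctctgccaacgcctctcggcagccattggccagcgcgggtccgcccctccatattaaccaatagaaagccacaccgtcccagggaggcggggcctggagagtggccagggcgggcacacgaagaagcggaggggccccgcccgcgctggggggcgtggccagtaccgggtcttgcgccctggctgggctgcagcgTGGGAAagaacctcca
The *Hes5* stretch is chr4:154960687-154960856 (plus strand), that of *Lfng* is chr5:140607196-140607248 (plus strand) and that of *Hey2* is chr10:30842771-30843000 (minus strand). In these 3 the first match reads TTCCCA and the second TGGGAA, which begins at -82, -108 and -3 from the start respectively, while in the window of *Rbpj*, not shown, TGGGAA comes first, at -149, and TTCCCA second, at -65. A match is a run of letters, and binding was not measured here. Whether the order and spacing of the 2 matches are those of known paired sites was not tested. The genes with 2 matches differed in their values. *Hes5*, which was below the filter and not tested, overlapped between genotypes. By TPM both *Shh-/-* pools lay above both WT pools for *Lfng* and *Hey2* and below them for *Rbpj*. Of all tested genes, 60.7% had no overlap in either direction.

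Several cell types of the larynx express Notch genes, and in bulk tissue fewer cells of a type and less RNA per cell cannot be told apart. Neuronal markers were higher in *Shh-/-*, with 11 of 12 positive, a median log2 change of 1.63 and a summed level of 895.5 and 982.6 TPM against 320.1 and 288.2 TPM. *Stmn2*, *Stmn3*, *Tubb3*, *Elavl3*, *Gap43* and *Nefl* passed the adjusted threshold in limma. Of the neurogenic transcription factors 7 of 8 tested were positive (median 2.84), and their sum was 125.1 and 118.1 TPM against 24.6 and 9.66 TPM. *Neurog2*, which drives *Dll1* in neuronal precursors, measured 31.4 and 28.7 TPM against 3.45 and 0.0453 TPM, and *Nhlh1* and *Nhlh2* passed the threshold. *Atoh1* and *Neurod6* were at 0 in all libraries. The part of these cells in the values of *Dll1*, *Notch1* and *Hes6* was not tested.

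Endothelial markers summed to 483.8 and 573.3 TPM in *Shh-/-* and 335.3 and 311.6 TPM in WT, with 12 of 12 at or above 0 (11 after centring) and a median log2 change of 0.70. *Tie1* passed the threshold, and *Cdh5* measured 72.8 and 78.5 TPM against 52.2 and 47.8 TPM. Relative to *Cdh5*, *Notch1* was 0.297 and 0.266 in *Shh-/-* and 0.195 and 0.174 in WT, which did not overlap (0.170 and 0.137 against 0.108 and 0.0786 on the coverage scale). The markers differed in how far they rose. The ratio of the genotype means was 1.51 for *Cdh5* and 2.31 for *Tie1*, beside 2.3 for *Notch1*. Over the 12 markers it ran from 1.0 (*Esam*) to 2.64 (*Cldn5*). No ratio of *Notch1* to another endothelial marker was computed. Mural markers summed to 526.7 and 508.2 TPM against 300.4 and 310.1 TPM (9 of 10 positive, median 0.50, *Tagln* past the threshold). The ratio of *Notch3* to *Pdgfrb*, a receptor of pericytes, was 1.10 and 0.941 in *Shh-/-* and 1.09 and 1.08 in WT, which overlapped. The part of these cells in the values of the Notch genes was not tested.

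The presomitic and somitic list shares *Lfng* and *Hes7* with the Notch list. Without them its markers summed to 72.8 and 48.7 TPM against 24.4 and 21.1 TPM (3 of 3 tested positive, median 0.92), mostly *Meox1* and *Pax1*, of which *Pax1* is also a marker of pharyngeal pouches and measured 30.1 and 9.67 TPM against 1.08 and 0.4 TPM. In this list *Msgn1* and *Ripply2* were at 0 in all libraries, *Mesp2* was at 0.155 TPM or less and *Tbx6* at 0.971 TPM or less. Neural crest and Schwann cell markers summed to 221.9 and 212.5 TPM against 141.2 and 110.1 TPM (8 of 9 positive, median 0.53, *Ngfr* past the threshold). Muscle markers summed to 170.3 and 247.4 TPM against 64.4 and 75.6 TPM (9 of 9 positive, median 1.38, *Myh6* and *Myh7* past the threshold). Mesenchymal markers summed to 1135 and 1048 TPM against 856.7 and 870.4 TPM (7 of 10 positive, median 0.25, *Twist1* past the threshold). An unadjusted p of 0.05 was passed by 3 of the 10 in each direction, beside 17.5% of all tested genes higher and 7.22% lower. The lower ones were *Foxf1*, at 0.848 and 9.57 TPM against 72.3 and 64.6 TPM (log2 change -3.97), *Osr1* (-1.58) and *Lum* (-1.01). The summed epithelial markers overlapped, at 814.7 and 706.4 TPM against 737.0 and 761.4 TPM (8 of 14 positive, median 0.02). Within this list *Foxa2* measured 5.34 and 9.12 TPM against 29.2 and 39.8 TPM (-2.13), and *Nkx2-1* (-1.64) and *Foxa1* (-1.0) were also lower at an unadjusted p of 0.05. The summed blood markers overlapped, at 9945 and 15077 TPM against 13188 and 15133 TPM (2 of 8 positive, median -0.17). The part of any of these lists in the values of the Notch genes was not tested.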

How the data were processed

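Poly(A)-selected, stranded libraries were made from 2 pools of *Shh-/-* and 2 pools of WT larynx tissue and sequenced single-end. Per the labels, the authors aligned reads to mm10 with HISAT2 2.1.0 and quantified genes with StringTie 1.3.6. The deposited tables give coverage, an unnormalized signal per base, together with the authors' FPKM, which divides coverage by the library's aligned bases, and the authors' TPM, which rescales FPKM within each library. No read counts were used and TPM carries none, so no counting interval was computed. Gene symbols and coordinates are those of the deposited tables, and 46488 of the 46983 gene IDs matched GENCODE M21 without their version.

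TPM was summed per gene ID. log2(TPM + 1) was tested for 16972 genes (mean TPM 1 or more) with limma 3.58.1 in R 4.3.3 (lmFit, eBayes with trend), *Shh-/-* minus WT, with no covariates, Benjamini-Hochberg adjustment over all of them and a threshold of 0.05. Fold changes on this scale understate the changes of low genes. The code was tested on simulated data. Sums, shares and ratios were compared by exact permutation, which cannot go below p = 0.333 with 2 pools against 2. The alternatives were another pseudocount, other filters, quantile normalization, median centring, FPKM, other eBayes settings, a threshold of 0.10, a GC content and length correction and leaving out each pool. Coverage in place of TPM was added after seeing the data.

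The 10 genes and all lists were chosen with earlier results of these data known. Named were all 10 genes, 6 paralogs, pathway genes past the threshold or with an absolute log2 change of at least 0.8 and no overlap, defining markers and the 3 nearest genes of members with a change of at least 1. *Axin2* was described further, and *Rbpj* and *Itch* were named as the 2 pathway genes lower at an unadjusted p of 0.05, after their values were seen. The same holds for *Pax1*, *Meox1* and the mesenchymal and epithelial markers given as lower. Of the defining markers, some are given only within the sums of their lists. The values of 1 listed marker are not reported here.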

Additional observations from a re-analysis of the deposited data

How the results depend on the processing

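No paired analysis was possible because the genotypes share no replicate number (1 and 2 against 4 and 6). With 2 pools per genotype, the calls were sensitive to the settings while most directions were not. No tested Notch gene was called in any setting at 0.05, and at an adjusted p of 0.10 the count was 1 (*Notch1*). For the wider list the count of 1 higher gene (*Mfng*) became 0 with a pseudocount of 0.1, no filter, quantile normalization, the GC content and length correction or coverage in place of TPM, 0 to 0 with any pool left out, and 6 at 0.10. Over all tested genes, 95 were higher in the reported setting, and 53 with a pseudocount of 0.1, 0 with no filter (28524 genes), 63 at a mean TPM of at least 5, 54 with the GC content and length correction, 14 with coverage, 0 to 4 with any pool left out and 670 at 0.10. The 28 lower genes became 16, 0, 10, 0 to 12 and 188 with a pseudocount of 0.1, no filter, coverage, any pool left out and 0.10. The median log2 change of the Notch genes of 0.45 became 0.31 with quantile normalization, 0.32 with median centring, 0.20 with the GC content and length correction and 0.32 to 0.54 with any pool left out, and that of the wider list, 0.31, became 0.16 with that correction and 0.18 to 0.44. Signs turned for *Hes1* (-0.16 to 0.71 with any pool left out, negative without WT pool 6), *Notch4* (-0.14 with the GC content and length correction and -0.14 with coverage) and *Rbpj* (0.07 with coverage). The cause of these shifts was not tested. The fits that leave out a pool have fewer samples, and the fit with no filter has more genes.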
